A study of Mus musculus with 6 samples.

Results

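The genes described here make cholesterol and fatty acids, or control their making. They were taken by name from a list of 32 symbols, and all 32 were found among the 55401 genes of the count table. The list held 6 genes of the mevalonate pathway, 3 that lead from there through squalene to lanosterol, 8 that turn lanosterol into cholesterol and 5 regulators of the pathway. A further 2 move sterol or make acetoacetyl-CoA, 4 build fatty acids and 4 introduce double bonds into them. Their RNA was measured in 6 libraries of V6.5, a mouse embryonic stem cell line made from hybrid embryos. The 3 WT libraries came from unmodified V6.5 cells, and the 3 knockout libraries from V6.5 cells of genotype Cdh1-/-, which lack the adhesion protein E-cadherin. No treatment is given in the labels, and they do not say whether the knockout cells were 1 clone or whether replicates A, B and C were separate cultures, so p-values measure the spread between these libraries.

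Cells assemble cholesterol from acetyl-CoA through mevalonate, squalene and lanosterol, and fatty acids from the same precursor through malonyl-CoA. Transcription of most enzymes of both routes is driven by the SREBP factors, which are membrane proteins held in the endoplasmic reticulum. When sterol is low, the escort protein SCAP carries them to the Golgi, where proteases release the part that enters the nucleus. When sterol is high, INSIG proteins hold SCAP and its cargo back.

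Total counts lay between 18020719 and 23381942 per library. Cdh1 itself had 537 to 571 CPM (the count divided by the TMM-scaled size of the library) in WT and 166 to 183 CPM in the knockout. Of 17325 tested genes, 13.3% were called changed, 7.60% higher and 5.71% lower in the knockout, which here means an adjusted p under 0.05 by the quasi-likelihood test of edgeR. Fold changes are given on the log2 scale as log2FC, knockout over WT. The sum of 10 pluripotency markers lay between 5042 and 5499 CPM in WT against between 5521 and 6733 CPM in Cdh1-/- cells, so that both genotypes carried the markers of their label. Of these markers 8 were not called, Klf2 was called lower (153 to 100.5 CPM) and Tdgf1, which lies within 1 Mb of Scap, was called higher (1302 to 2014 CPM). All 10 primitive endoderm markers were called higher, with sums of 178 to 268 CPM in WT against 501 to 966 CPM in Cdh1-/- cells. The sum of 10 fibroblast markers was 74.1 to 97.5 CPM in WT and 53.8 to 84.5 CPM in the knockout, and 1 was called lower. In bulk RNA, fewer cells of a type and less RNA per cell cannot be told apart, and the part of these marker changes in the results below was not tested.

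Few of the sterol and fatty acid genes passed the test, and most of the rest lay slightly above WT. All 32 passed the filter on low counts, 4 rose in the knockout and 0 fell. Before adjustment, 9 had a p under 0.05 with a higher and 1 with a lower level, 10 of 32 beside 26.7% of all tested genes. The 4 that rose were Scap, Ebp, Fdft1 and Fasn. They are 12.5% of the members, against 7.60% of all tested genes called higher. The median log2 fold change of the members was 0.18, beside -0.01 over all tested genes, and 26 of the 32 values were above 0. Libraries of the genotypes did not overlap for 7 of the 32 members, against 30.7% of all tested genes. The 7 include Fdps, which is also among the values below 0 and, as given below, could hardly be measured. The median of the members was 0.07 without WT replicate C and 0.28 without WT replicate B, so it rested in part on single libraries.

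**Figure D1:**
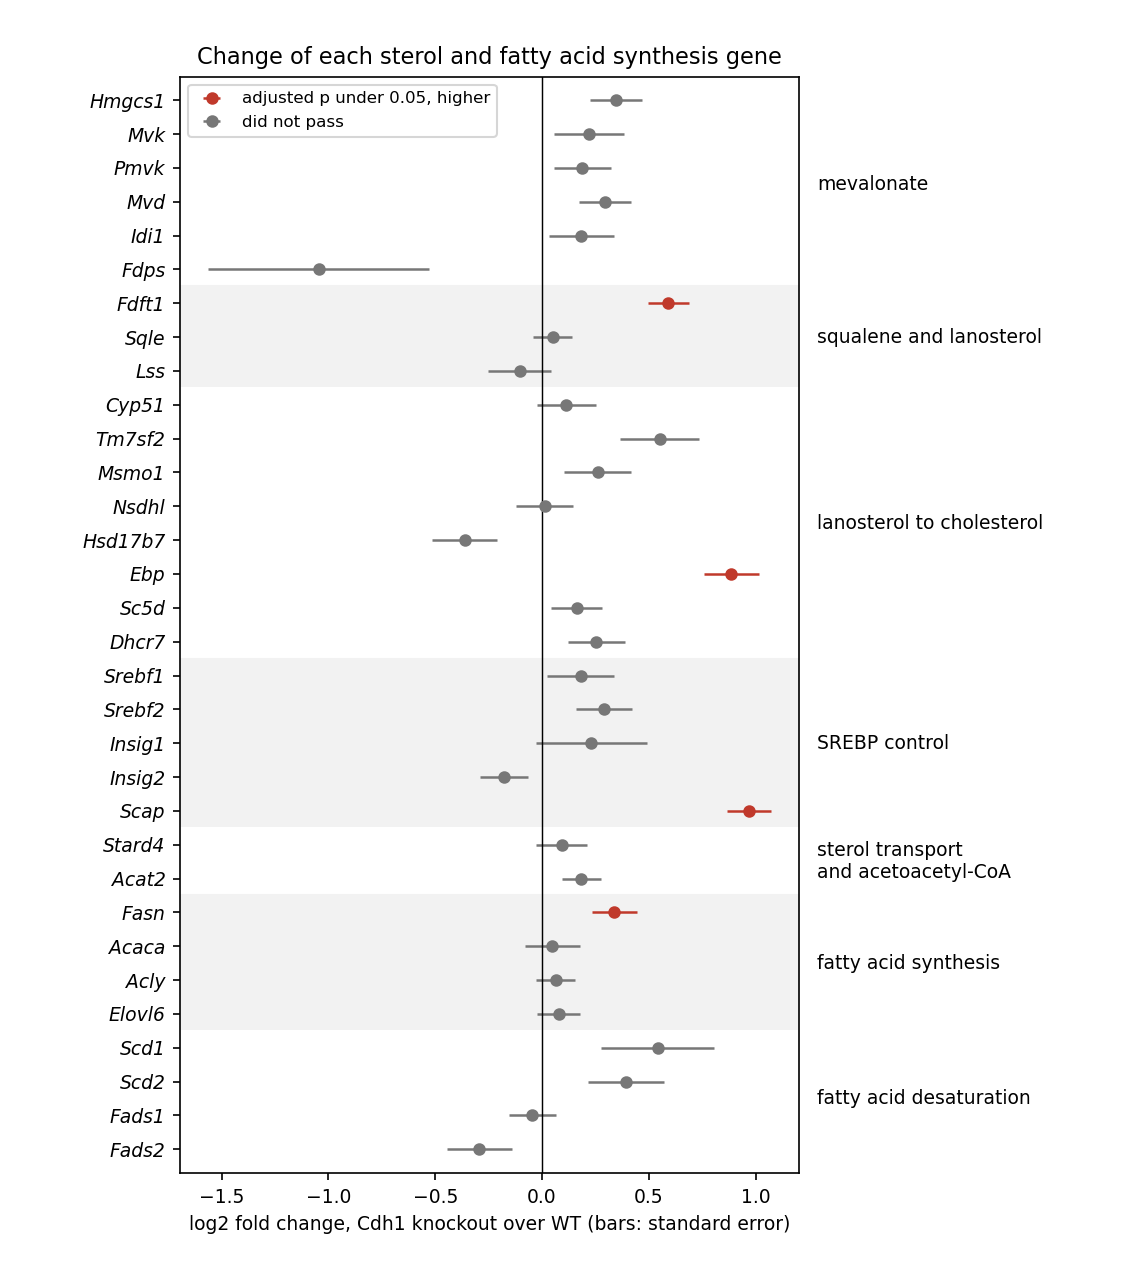
Log2 fold change of each of the 32 genes (horizontal axis, knockout over WT, bars are the standard error), grouped by role. The 4 red points, Fdft1, Ebp, Scap and Fasn, passed an adjusted p of 0.05, and the other 28 did not.

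Among the regulators, Scap changed and the genes of its partners did not pass the test. Scap (ENSMUSG00000032485.14, chromosome 9, 110333356 to 110384950 in GRCm38, plus strand) encodes the sterol-sensing escort of the SREBP factors. It was counted at 34.8, 30.7 and 35.4 CPM in the WT libraries, in the order A, B and C, and at 69.9, 62.5 and 65.3 CPM in the knockout. Every knockout library lay above every WT library, and the spread within each genotype was small. Scap rose by a log2FC of 0.97 (standard error 0.10, adjusted p 2.4e-05, edgeR), to 196% of the WT mean. This call held in the 17 settings other than the removal of local medians, between 0.91 and 1.02. With local medians, taken over both sides of the gene, removed, the value was lower, at 0.40, and was still called. The opposite-strand gene 5830462I19Rik covers 18.6% of its exon bases, and how the counting treated strand is not given in the sources used here.

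Srebf2, the gene of the SREBP that mainly serves sterol synthesis, was counted at 277, 279.8 and 215 CPM in WT and at 387, 279 and 277 CPM in Cdh1-/- cells (log2FC 0.29, adjusted p 0.173). Only knockout replicate A lay above the WT libraries. Srebf1, whose products mainly serve fatty acid synthesis, had 74.5, 85.6 and 60.0 CPM in WT and 103, 83.9 and 62.8 CPM in Cdh1-/- cells (log2FC 0.18, adjusted p 0.517). Insig1, which encodes a retention protein and is itself a target of SREBP, varied most among the regulators. Its level was 102, 131 and 62.5 CPM in WT and 175, 89.0 and 83.4 CPM in Cdh1-/- cells (log2FC 0.23, adjusted p 0.630). The highest library of a genotype was 2.09 times the lowest in WT and 2.097 times in the knockout, and the fold change of Insig1 was -0.19 without knockout replicate A. Insig2, the second retention protein, had 31.9 to 38.1 CPM in WT and 29.6 to 32.1 CPM in Cdh1-/- cells (log2FC -0.18, adjusted p 0.340). Insig2 lies on chromosome 1, whose median log2 fold change over 1002 tested genes was -0.33, and with that shift removed its value was 0.14.

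On the scale of CPM per kilobase of exon, on which genes can be compared, the level of Scap was below that of Srebf2 in every library. The ratio of Scap to Srebf2 was 0.15, 0.13 and 0.20 in WT and 0.22, 0.27 and 0.28 in Cdh1-/- cells, without overlap. The ratio of Scap to Insig1 was 0.22, 0.15 and 0.36 in WT and 0.26, 0.45 and 0.50 in Cdh1-/- cells, and there the genotypes overlapped. The order by level per kilobase placed Scap in position 26 of 32 in WT and 20 in the knockout.

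In the mevalonate pathway 0 of 6 genes passed the test, and 2 were higher at an unadjusted p under 0.05, which 26.7% of all tested genes had in either direction. Hmgcs1, the synthase that makes HMG-CoA, was nearest to the threshold. It was counted at 122, 144 and 113 CPM in WT and at 188, 134 and 159.5 CPM in Cdh1-/- cells (log2FC 0.35, standard error 0.12, adjusted p 0.0758). Knockout replicate B lay inside the WT range. DESeq2 gave an adjusted p of 0.0443 for this gene. Mvd, the decarboxylase that forms isopentenyl diphosphate, had 29.3 to 38.8 CPM in WT and 38.6 to 44.2 CPM in Cdh1-/- cells (log2FC 0.30, adjusted p 0.1303). Mvk and Pmvk, the kinases before it, had log2 fold changes of 0.22 and 0.19, and Idi1, the isomerase after it, one of 0.18, with overlapping libraries in each case.

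Fdps, the farnesyl diphosphate synthase, could hardly be measured with these counts. Its level was 0.50 to 1.11 CPM in WT and 0.33 to 0.48 CPM in the knockout, the lowest of the members. In the annotation 77.4% of its exon bases are shared with Gm43738, a gene model on the same strand that itself had 0 to 2 counts per library. Reads that fall on more than 1 gene may go uncounted, and the setting is not given in the sources used here. Its log2FC of -1.05 (adjusted p 0.215) was therefore not read as a level of the enzyme's RNA.

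Fdft1 alone passed among the genes from squalene to lanosterol. It encodes squalene synthase, the first enzyme committed to sterol (ENSMUSG00000021273.11, chromosome 14, 63145150 to 63179578, minus strand). Its level was 71.7, 75.9 and 65.3 CPM in WT and 116, 99.5 and 105 CPM in the knockout, with every knockout library above WT. The log2FC was 0.59 (standard error 0.10, adjusted p 0.000783, edgeR). Chromosome 14 as a whole had a median of 0.53 over 622 tested genes, and with the shifts of chromosomes 1 and 14 removed Fdft1 was at 0.05 (adjusted p 0.823). An opposite-strand gene, Ctsb, covers 19.4% of its exon bases and was itself called higher, with a log2 fold change of 1.13. Sqle, the squalene epoxidase, had 59.6 to 69.7 CPM in WT and 65.3 to 68.1 CPM in Cdh1-/- cells (log2FC 0.05, standard error 0.09). Lss, which closes the ring system to lanosterol, had a log2FC of -0.11 (adjusted p 0.712).

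Of the 8 genes between lanosterol and cholesterol, Ebp passed and the other 7 did not. Ebp encodes the sterol isomerase that moves the double bond of the B ring (ENSMUSG00000031168.14, chromosome X, 8185329 to 8193512, minus strand). It had 17.7, 14.7 and 18.96 CPM in WT and 29.7, 32.4 and 32.9 CPM in the knockout. The groups did not overlap, and the log2FC was 0.89 (standard error 0.13, adjusted p 0.000326, edgeR), 185% of the WT mean. The call held in the same 17 settings, between 0.79 and 0.97, but was lost with local medians removed, where the value was -0.14.

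Tm7sf2, a sterol reductase, had 13.1, 12.3 and 10.5 CPM in WT and 21.3, 18.7 and 12.6 CPM in Cdh1-/- cells (log2FC 0.55, adjusted p 0.0657). Knockout replicate C lay within the WT range, and without it the adjusted p was 0.0111. Tm7sf2 was also called higher with the replicate letter as a further term of the fit. Msmo1, which oxidises the methyl groups of the sterol ring, had 65.6 to 109.9 CPM in WT and 98.6 to 129 CPM in Cdh1-/- cells (log2FC 0.26, adjusted p 0.319). Cyp51, the lanosterol demethylase, Sc5d, a desaturase, and Dhcr7, the last reductase, had log2 fold changes of 0.11, 0.16 and 0.25 with overlapping libraries. Nsdhl, a dehydrogenase on the X chromosome like Ebp, had 16.6 to 20.6 CPM in WT and 17.6 to 18.9 CPM in Cdh1-/- cells (log2FC 0.01). Hsd17b7, its partner reductase, was the only member with at least 10 CPM whose knockout libraries all lay below WT. It had 14.04, 14.4 and 14.5 CPM in WT and 10.7, 12.6 and 10.1 CPM in Cdh1-/- cells (log2FC -0.36, adjusted p 0.136). It lies on chromosome 1, and with the medians of chromosomes 1 and 14 removed its log2FC was -0.048 (adjusted p 0.894).

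Acat2, which joins acetyl-CoA units at the start of the route, was nearly constant within WT at 53.5, 52.4 and 53.2 CPM. Its knockout libraries were all above these, at 61.1, 62.8 and 57.0 CPM, but the log2 fold change of 0.18 did not pass (adjusted p 0.216). Stard4, a carrier of sterol between membranes, had a log2FC of 0.09 (adjusted p 0.688).

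Fasn alone passed among the 4 genes of fatty acid synthesis, at the edge of the threshold. It encodes fatty acid synthase (ENSMUSG00000025153.9, chromosome 11, 120805846 to 120824547, minus strand). Its level was 469.5, 457 and 391.5 CPM in WT against 533, 642 and 492 CPM in Cdh1-/- cells, without overlap. The log2FC was 0.34 (standard error 0.11, adjusted p 0.0474, edgeR), and the call was lost in 10 of the 17 other settings. Leaving out WT replicate A gave an adjusted p of 0.0798, leaving out WT B 0.107, leaving out WT C 0.153 and leaving out knockout B 0.195.

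The enzymes on either side of Fasn did not pass the test. Acly, which supplies acetyl-CoA from citrate, had 298 to 371 CPM in WT and 339.7 to 365 CPM in Cdh1-/- cells (log2FC 0.06, standard error 0.09). Acaca, which makes malonyl-CoA, had a log2FC of 0.05 and Elovl6, which lengthens palmitate, one of 0.08, both with overlapping libraries.

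None of the 4 desaturase genes passed. At an unadjusted p under 0.05 there was 1 higher and 0 lower, beside 26.7% of all tested genes in either direction. Scd1, a stearoyl-CoA desaturase, had 109.7, 148 and 50.1 CPM in WT against 177, 158 and 114 CPM in Cdh1-/- cells. The highest WT library was 2.95 times the lowest, the widest WT range of any member, and the log2 fold change of 0.54 did not pass (standard error 0.27, adjusted p 0.209). Scd2, its neighbour in a cluster of related genes on chromosome 19, had 269.6, 401 and 225 CPM in WT and 417, 453 and 304 CPM in Cdh1-/- cells (log2FC 0.39, adjusted p 0.173). Reads shared between such close relatives may be split or lost in counting, so their values are less certain. Scd1 and Scd2 were both called higher with the replicate letter as a further term of the fit. Fads1 and Fads2, which introduce double bonds into polyunsaturated fatty acids, had log2 fold changes of -0.05 and -0.29 (adjusted p 0.843 and 0.236).

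Much of the variation of these genes lay between libraries of 1 genotype. WT replicate C was the lowest WT library for 25 of the 32 members, against 34.8% of all tested genes, and WT replicate B was the highest for 22, against 34.8%. Knockout replicate C was the lowest knockout library for 22 members, against 31.8% of all tested genes, and knockout replicate A the highest for 17, against 37.8%. Replicate A was the highest knockout library for all 5 regulators and for 5 of the 8 genes from lanosterol to cholesterol, but for 0 of the 4 fatty acid synthesis genes. The median log2 difference of the members from the WT mean was 0.05, 0.17 and -0.19 in the WT libraries A, B and C, and it was 0.30, 0.17 and 0.07 in the knockout. Over all tested genes the same medians lay between -0.01 and 0.01. These counts over members describe libraries and are not tests, since the genes share the libraries. On the second principal component of all genes, knockout replicate A lay at 43.5, WT replicates A and B at 8.86 and 8.99, and knockout replicate B at -11.7. WT replicate C and knockout replicate C lay at the other end, at -23.8 and -25.8.

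**Figure D2:**
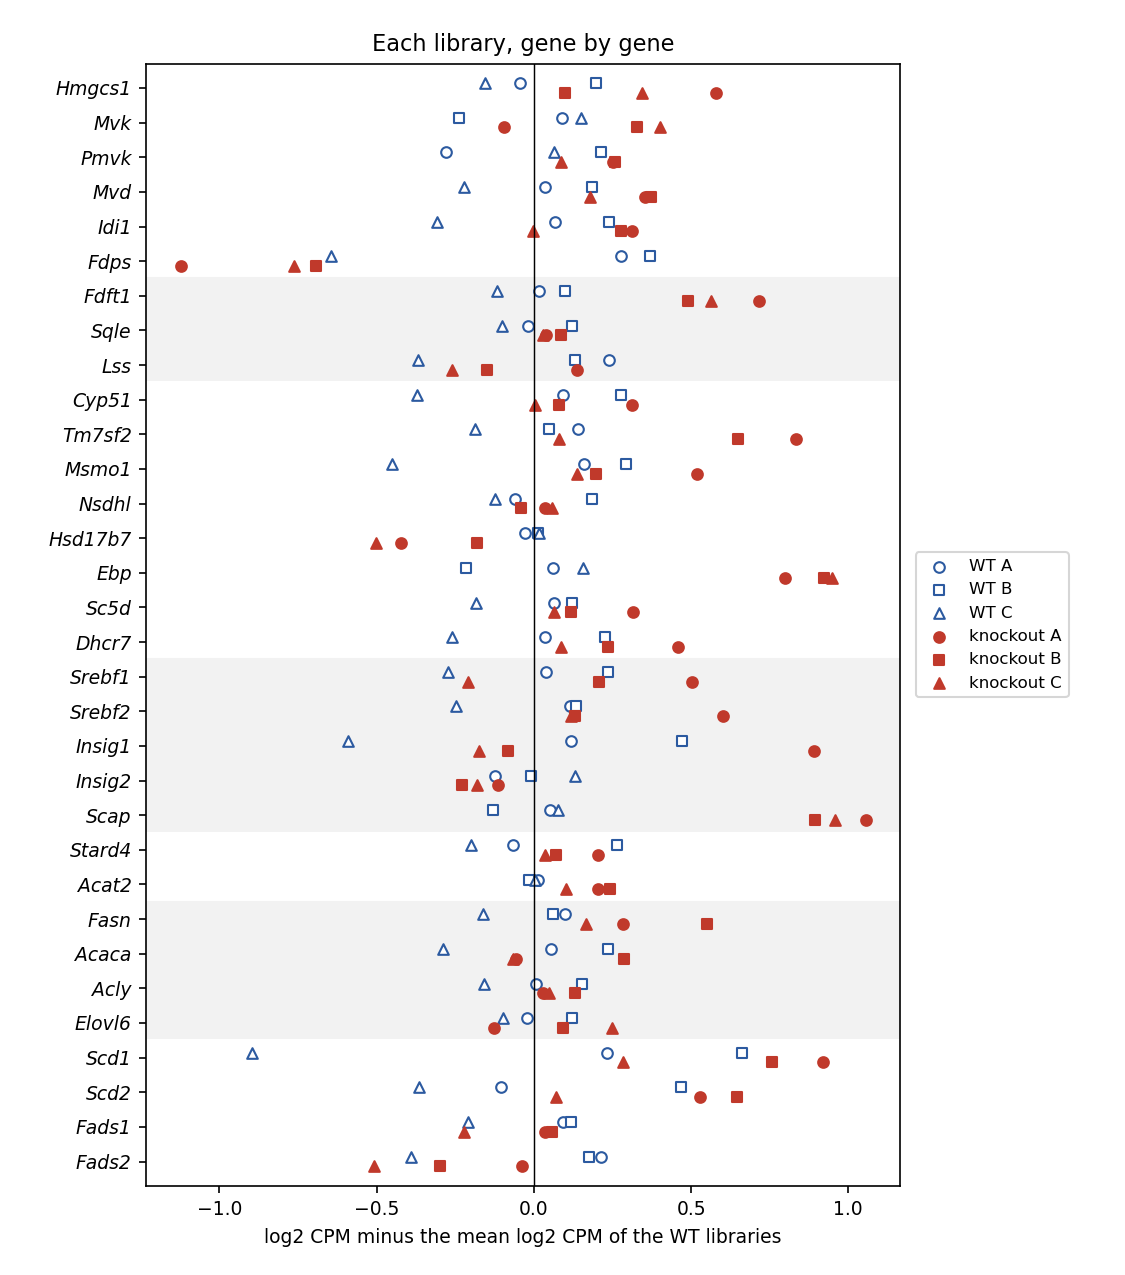
Log2 CPM of each gene in each library (horizontal axis, as the difference from the mean log2 CPM of the WT libraries), with WT as open blue and knockout as filled red symbols. WT replicate C is the lowest WT library for 25 of the 32 genes, while Scap, Ebp and Fdft1 show both genotypes as separate clusters.

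**Figure D3:**
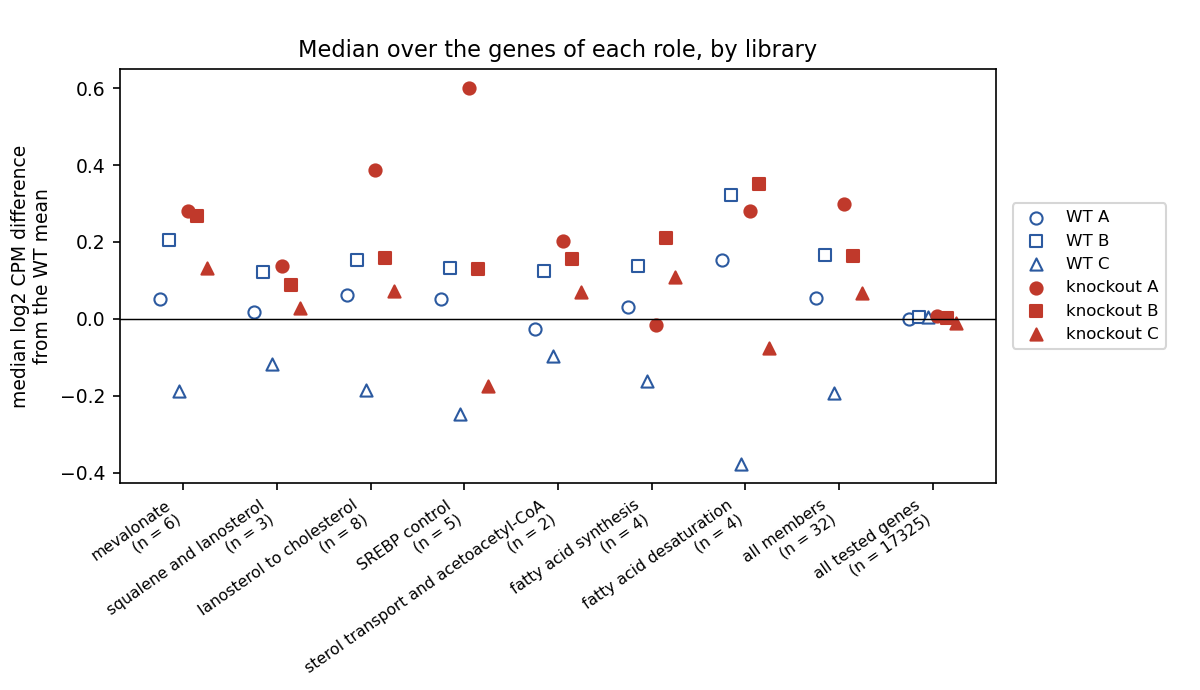
Median log2 CPM difference from the WT mean (vertical axis) over the genes of each role, for each library, with the number of genes below. Knockout replicate A stands highest for the regulators, at 0.60, and WT replicate C lowest for the desaturases, at -0.38, while all tested genes lie between -0.01 and 0.01.

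The level of the members per kilobase spanned a wide range. Acly was the highest in WT at 72.6 ± 7.85 CPM per kilobase (SD, n = 3), followed by Scd2 at 54.7 ± 16.8 and Srebf2 at 50.6 ± 7.22. Scd2 overlapped both of the others across libraries, so its place between them lay within the spread. Hsd17b7 at 2.84 CPM per kilobase and Fdps at 0.607 CPM per kilobase were the lowest. The same 3 genes led in the knockout in the same order.

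Promoter sequences were read for the members in RefSeq windows of GRCm38.p6 that run from 250 bases before to 50 bases after a transcription start. A window was found for 25 of the 32 members, 33 windows in all. None was found for Fdft1, Sqle, Fdps, Scd1, Scd2, Fads1 and Stard4, so the shares below leave these genes out. SREBP binds sterol regulatory elements together with NF-Y, whose box is CCAAT, and can also bind E-boxes. Searched on both strands, CCAAT occurred in 21 of the 33 member windows (63.6%), against 37.4% of all 32851 windows. The core CACCCCAC occurred in 2 member windows (6.06%, against 2.87%), its relaxed form CACNCCAC, which includes the first, in 3 (9.09%, against 6.24%), and the E-box CACGTG in 6 (18.2%, against 7.15%), of which 2 are overlapping windows of Scap with the same site. By gene, the E-box occurred in 5 of the 25 members, against 8.09% of all genes with a window. The exact core was held by Hmgcs1 and Acat2, and the relaxed form by these and Insig1. The windows below show Hmgcs1 and Insig1, beside the 2 members with the largest rises, Scap and Ebp. The window of Acat2, which holds no NF-Y box, is not shown. Sequences run 5′ to 3′ along the gene, and capitals mark a match to any of these 4 motifs on either strand.

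Hmgcs1 (chr13:119690101-119690400, plus strand): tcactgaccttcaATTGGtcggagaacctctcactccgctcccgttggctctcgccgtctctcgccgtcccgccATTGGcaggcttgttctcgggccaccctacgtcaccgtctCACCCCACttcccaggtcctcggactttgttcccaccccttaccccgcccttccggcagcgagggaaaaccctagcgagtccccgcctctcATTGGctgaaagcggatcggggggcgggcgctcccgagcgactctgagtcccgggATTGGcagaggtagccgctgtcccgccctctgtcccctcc

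Insig1 (chr5:28071162-28071461, plus strand): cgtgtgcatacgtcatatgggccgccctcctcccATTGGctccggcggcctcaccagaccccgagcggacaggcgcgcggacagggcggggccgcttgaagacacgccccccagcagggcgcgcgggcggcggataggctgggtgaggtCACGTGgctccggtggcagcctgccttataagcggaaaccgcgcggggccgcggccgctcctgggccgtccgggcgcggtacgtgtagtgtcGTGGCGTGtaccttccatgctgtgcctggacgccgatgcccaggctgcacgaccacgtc

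Scap (chr9:110333038-110333337, plus strand): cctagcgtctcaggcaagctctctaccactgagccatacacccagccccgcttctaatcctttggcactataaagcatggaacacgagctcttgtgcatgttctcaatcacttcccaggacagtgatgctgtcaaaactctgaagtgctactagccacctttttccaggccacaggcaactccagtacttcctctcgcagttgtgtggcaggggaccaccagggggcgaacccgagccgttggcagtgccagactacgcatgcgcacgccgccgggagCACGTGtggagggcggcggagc

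Ebp (chrX:8193463-8193762, minus strand): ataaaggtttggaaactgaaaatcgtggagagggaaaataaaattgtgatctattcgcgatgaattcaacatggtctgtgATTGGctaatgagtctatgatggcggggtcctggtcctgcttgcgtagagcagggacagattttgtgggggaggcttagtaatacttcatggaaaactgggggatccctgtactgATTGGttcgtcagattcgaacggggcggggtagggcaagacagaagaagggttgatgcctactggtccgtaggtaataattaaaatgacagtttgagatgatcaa

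Hmgcs1 held the core and the NF-Y box, Insig1 the relaxed core, the E-box and the NF-Y box, Ebp the NF-Y box alone and Scap the E-box alone. Neither Hmgcs1 nor Insig1 passed the test between genotypes, and both varied between libraries of 1 genotype. The windows do not show whether a factor was bound.

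Scap and Ebp shared a feature that the list did not use: their neighbours on the chromosome were higher as well. This was looked at after the values were seen. Among tested genes within 1 Mb of Ebp and with a mean of at least 5 CPM, 25 of 26 were called higher and 0 lower, with a median log2 fold change of 1.06. The limit of 5 CPM on the mean also admitted genes through their knockout level, such as Slc38a5 and Prickle3. Over all tested genes in the window, without that limit, 27 of 44 were called higher and 0 lower, with a median of 0.93. The median of these genes was 0.99, 1.07 and 1.025 in knockout replicates A, B and C and between -0.04 and 0.02 in the WT libraries. The whole X chromosome had a median of 0.02 over 584 tested genes, and the window around Nsdhl on the same chromosome one of 0.05. Close to Ebp, the RNA methyltransferase gene Ftsj1 rose from 20.4 to 48.6 CPM (adjusted p 6.2e-06), and Rbm3, which encodes a cold-inducible RNA-binding protein, from 150.5 to 315 CPM (adjusted p 1.3e-05). Hdac6, a cytoplasmic deacetylase gene in the same window, rose from 131 to 317 CPM (adjusted p 2.1e-06).

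Around Scap the higher values lay on one side. Of 17 such genes at higher coordinates within 1 Mb, 13 were called higher and 0 lower, with a median log2 fold change of 0.73. Of the 8 at lower coordinates, 2 were called higher, with a median of 0.01. On the higher side the limit of 5 CPM on the mean admitted Tmie, which was called higher, through its knockout level (3.84 CPM in WT, 6.37 CPM in the knockout). Without the limit on the mean, 16 of 34 tested genes on both sides together were called higher and 0 lower. Those counts were not split by side. Next to Scap on the lower side Elp6 was called higher (log2 fold change 0.86), and the next 4 tested genes, Mir6236, Cspg5, Smarcc1 and Dhx30, lay between -0.17 and 0.09. On the higher side the 5 nearest tested genes were all called higher. They included the phosphatase gene Ptpn23, from 109 to 173 CPM, and the histone methyltransferase gene Setd2, from 177 to 286 CPM. Chromosome 9 as a whole had a median of 0.03 over 996 tested genes.

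For comparison, 7 or more of the 10 nearest tested genes were called higher, as for Ebp, around 1.10% of 17109 genes, and 6 or more, as for Scap, around 1.95%. Without chromosome 14 these shares were 0.364% and 0.497%. They cover genes whatever their own call, while Ebp and Scap were looked at because they were called higher. The share among called genes was not computed. Around Fdft1 5 of 10 genes within 1 Mb were called higher, and the median was 0.48, while without the limit on the mean it was 5 of 16, with 1 lower. These 5 include Gata4 and Sox7, which are also counted among the primitive endoderm markers above. Sox7 met the limit on the mean through its knockout level (2.74 CPM in WT, 12.4 CPM in the knockout). Around Fasn 6 of 46 were called higher and 2 lower, with a median of 0.01. With the median of each window removed, the log2 fold change of Scap was 0.40 (adjusted p 0.0261), that of Fasn 0.32 (adjusted p 0.0536), that of Fdft1 0.12 (adjusted p 0.512) and that of Ebp -0.14 (adjusted p 0.524), all by edgeR. For Scap the window median of 0.63 was taken over both sides, with medians of 0.73 and 0.01. It thus lay below that of the higher side, and whether Scap rose beyond the genes of that side was not tested. The cause of the regional values was not tested. The windows of the 27 members outside the windows of Scap and Ebp and outside chromosomes 1 and 14 had medians from -0.27 around Insig1 to 0.31 around Msmo1, each over few genes at those ends.

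**Figure D4:**
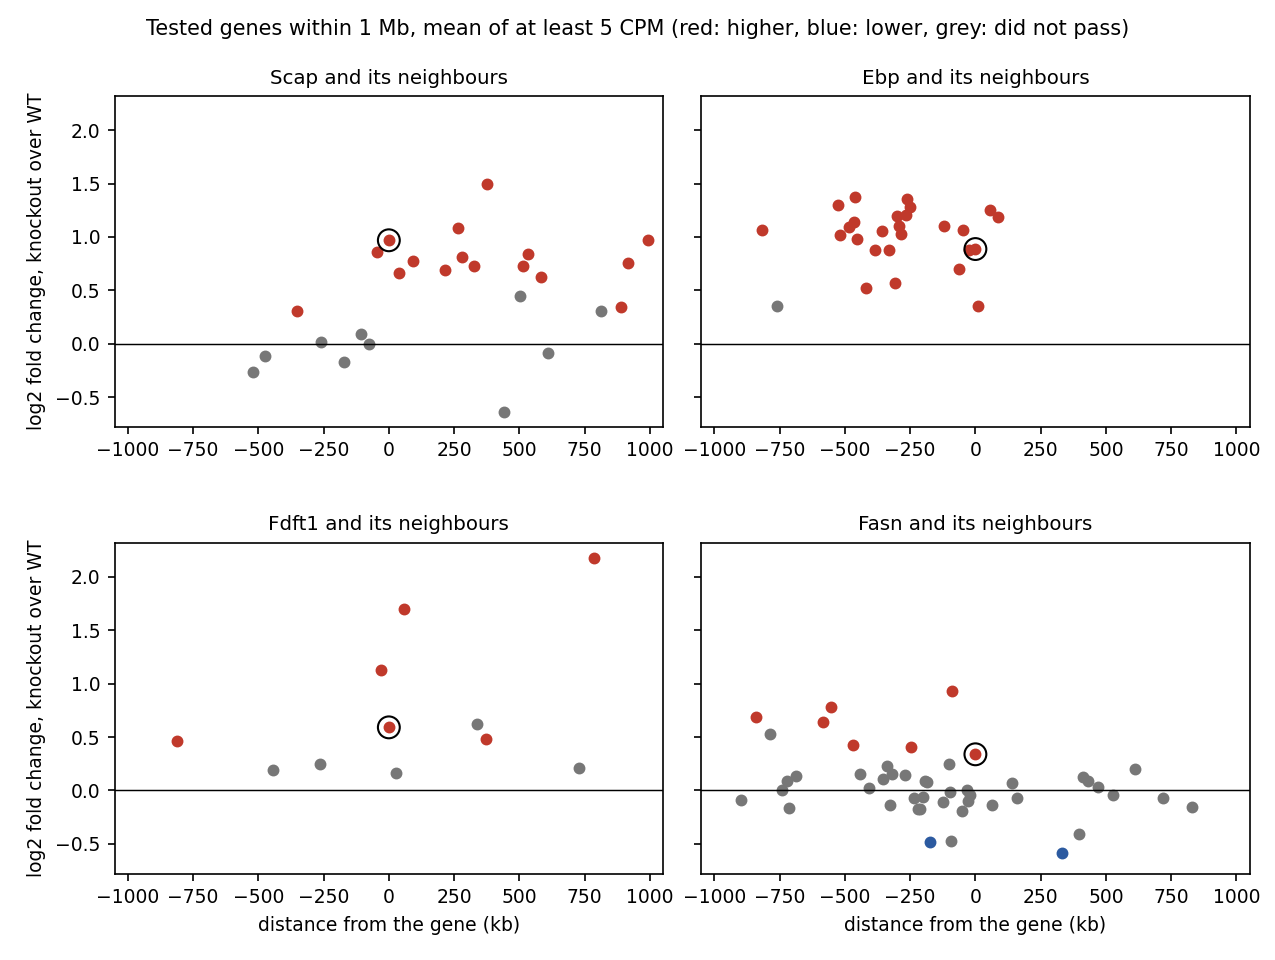
Log2 fold change (vertical axis, knockout over WT) of tested genes with a mean of at least 5 CPM against their distance in kb from Scap, Ebp, Fdft1 or Fasn, which is circled. Red points were called higher, blue lower and grey neither. Around Ebp 25 of 26 neighbours are red, and around Scap 13 of 17 on the right side and 2 of 8 on the left. The limit on the mean admits some genes, such as Tmie near Scap, through their knockout level.

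Genes beside these pathways were read from a second list of 73, of which 72 were tested. Of these, 5 rose and 1 fell, 8.33% in all against 13.3% of all tested genes, and their median log2 fold change was 0.07. None of the 8 genes of SREBP processing and degradation, the 9 of the isoprenoid branches or the 6 that supply acetyl-CoA and NADPH passed, while at an unadjusted p under 0.05 these 3 lists held 3 genes that were higher and 1 that was lower, beside 26.7% of all tested genes in either direction.

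Cpt1a, which admits fatty acids to mitochondria for oxidation, had 185, 185 and 179.7 CPM in WT and 349, 284 and 259 CPM in Cdh1-/- cells (log2FC 0.70, adjusted p 0.000385). All knockout libraries were above WT, with replicate A the highest. Lpin1, a phosphatidate phosphatase of glycerolipid synthesis, rose, from 31.98 ± 5.30 CPM in WT to 54.1 ± 4.20 CPM (SD, n = 3, log2 fold change 0.76, adjusted p 0.000845, edgeR). Por, the reductase that passes electrons to Cyp51 and Sqle, rose, from 57.0 ± 3.32 CPM in WT to 78.5 ± 5.32 CPM (log2FC 0.46, adjusted p 0.00403). Elovl7, an elongase, rose at a log2FC of 0.69 (adjusted p 0.00764). Without WT replicate A its adjusted p was 0.051, while its log2FC stayed between 0.58 and 0.87 over the fits without 1 library. Hacd2, a dehydratase of elongation, rose by 0.42 (adjusted p 0.0358), a call lost in 8 of the 17 other settings. Soat1, which esterifies cholesterol for storage, fell, with 127 ± 15.8 CPM in WT against 90.9 ± 12.5 CPM (log2FC -0.49, adjusted p 0.0102). It lies on chromosome 1, and with the shift of that chromosome removed its value was -0.17 (adjusted p 0.403). The Soat1 call was lost in 5 of the 17 other settings, among them the fits without WT replicate B, knockout replicate B or knockout replicate C.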

How the data were processed

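RNA was isolated with TRIzol and made into directional libraries, per the labels' protocols. The authors deposited raw counts per gene, whole numbers without normalization. Cutadapt 2.10, STAR 2.7.5b, featureCounts 2.0.1 and the build GRCm38 are named in the submitters' processing notes, without settings. The deposited table also gives exon length, which is another unit, in bases. A symbol was found for 55141 of 55401 genes. Among counts of 1 to 10, 78.1% to 83.1% were even, against 50.2% to 52.1% of counts over 1000, so both mates of a pair may have been counted, and counting error then follows pairs.

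The test was that of edgeR 4.0.16 in R 4.3.3 (filterByExpr with a smallest count of 10 and total of 15, TMM, glmQLFit and glmQLFTest with genotype as the only term, all 6 libraries). P-values were adjusted by Benjamini-Hochberg over 17325 genes and called under 0.05. Levels are CPM after TMM scaling. Standard errors came from the F statistic. Log2 levels per library used a prior count of 2. On simulated data the procedure called 74.0% of genes changed 2-fold and 96.9% of genes changed 4-fold. Smaller changes were not simulated, so a gene that did not pass may still have changed. Alternatives were other scaling factors, other filters, DESeq2 1.42.0, limma-voom (limma 3.58.1), a threshold of 0.01, counts divided by 2, a replicate block, removal of the medians of chromosomes 1 and 14, and each library left out. Removal of local medians was added after the data were seen. The members and lists were chosen with earlier results of these data known. All 32 members and every called gene of the second list, up to 4 per sub-list and direction, are named. Marker lists covered stem cells, fibroblasts, primitive endoderm, neural cells and hepatocytes. Neighbouring genes were chosen after their values were seen.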

Additional observations from a re-analysis of the deposited data

How the results depend on the processing

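The count of members called higher was 4, and it was 9 with no filter on low counts, 7 with the replicate letter as a replicate block, 2 once the medians of chromosomes 1 and 14 were taken off and 1 with local medians removed. Over the fits that each left out 1 library it ranged from 3 to 5, and the count called lower from 0 to 1, with Fads2 called without WT replicate C (adjusted p 0.0491). Same-lettered libraries correlated in their deviations at 0.14 for A, -0.03 for B and 0.23 for C. WT replicates A and C correlated best with the knockout library of their own letter, but WT replicate B with knockout replicate A (0.12). The A libraries also shared the hepatocyte transcripts given below. The labels do not say what the letters stand for. The main fit did not take them as pairs, and the calls depend on that choice. With the block Scd1, Scd2 and Tm7sf2 were called in addition. The count of second-list genes called higher was 9 with no filter and 3 to 6 over the fits without 1 library. The count called lower was 2 with upper quartile factors, library totals, a smallest count of 50, DESeq2, limma-voom, the block or counts divided by 2, and 0 with the chromosome medians removed or at an adjusted p of 0.01, and 0 to 4 without 1 library. Over all tested genes, 1242 passed an adjusted p of 0.01, and 1374 to 2784 passed without 1 library, the lowest without WT replicate A, with 1470 without WT replicate B. Some signs turned. Nsdhl was at -0.024 with upper quartile factors, at -0.023 with library totals and at -0.0058 with a smallest count of 50, Insig2 at 0.14 with the chromosome medians removed, and Ebp at -0.14 with local medians removed. Without 1 library each, log2 fold changes ranged from -0.26 to 0.017 for Lss, -0.041 to 0.26 for Cyp51, -0.040 to 0.11 for Nsdhl, -0.19 to 0.49 for Insig1, -0.074 to 0.17 for Acaca, -0.0025 to 0.15 for Acly, -0.0071 to 0.17 for Elovl6 and -0.13 to 0.046 for Fads1. The median of the members ranged from 0.07 to 0.28 in these fits. Apart from chromosome and local medians, which by construction remove shared shifts, the cause of these differences was not tested. Fdps, with a smallest count of 6, was the member at the limit of depth.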

Other observations

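Transcripts of genes typical of hepatocytes, a cell type that makes much cholesterol and fat, were present in both libraries lettered A and nearly absent from the others. Alb, the albumin gene, was at 10.7 CPM in WT replicate A and 8.95 CPM in knockout replicate A, and at 0 to 0.10 CPM in the other 4 libraries. Apoa1, an apolipoprotein gene, was at 6.08 CPM and 5.97 CPM in the A libraries and at 0 to 0.90 CPM in the others. The sum of the 6 listed hepatocyte genes was 21.0 CPM and 17.7 CPM in the A libraries and 0 to 1.2005 CPM elsewhere, while Afp and Cyp7a1 stayed at or under 0.22 CPM in every library. Their part in the levels of Scd1, Fasn or Insig1 was not tested.

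Some neural markers were lower in the knockout. Of 7 tested, 3 were called lower and 0 higher, beside 5.71% and 7.60% of all tested genes. The sum of the 8 listed markers was 177 to 220 CPM in WT against 137 to 172 CPM in Cdh1-/- cells. This sum includes genes that were not called, such as Tubb3 (62.2 to 56.3 CPM) and Ncam1 (26.2 to 31.4 CPM). Pax6, a neural transcription factor gene, fell from 17.3 to 1.98 CPM (adjusted p 3.5e-06, edgeR), while Sox1 was at 24.5 CPM in WT against 32.7 CPM in Cdh1-/- cells (adjusted p 0.265).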
